A study of Homo sapiens with 9 samples.

Results

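The intervals described here lie in 5 stretches of human chromosome 19 known for their clusters of KRAB zinc finger genes. The windows were chosen with earlier results of these data known. Membership in them went by position on chromosome 19 of hg19. It took every interval lying wholly within 19.8 to 24.4, 37 to 38.4, 44.4 to 45, 52.3 to 53.95 or 56.6 to 59.1 Mb. The rule takes in 494 of the 55527 intervals listed once in the files, with 153, 53, 29, 86 and 173 in the 5 windows in that order. The other 2178 intervals of chromosome 19 serve as the comparison. RNA came from MDA-MB-231 cells, an established human triple-negative breast cancer line, infected with a lentivirus carrying a short hairpin RNA and selected with puromycin. The hairpin was shCTDP1-#1 or shCTDP1-#2, both against CTDP1, or the scrambled control shScr, with 3 libraries in each group. All 3 groups therefore share the infection and the selection. The labels do not say whether replicate libraries were grown as separate cultures. The p-values below therefore reflect the spread among these libraries alone, and that spread may be technical.

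KRAB zinc finger proteins bind DNA through tandem arrays of zinc fingers and recruit the corepressor TRIM28 through their KRAB domain. Many of them keep transposable elements silent. Their genes arose by repeated tandem duplication, which left long rows of related neighbours on chromosome 19, and the clusters are known for carrying repressive chromatin over gene bodies while most members are transcribed at low level. CTDP1, also called FCP1, dephosphorylates the repeated tail of RNA polymerase II, which is phosphorylated during initiation and elongation and must be recycled for new rounds of transcription. In the RefSeq annotation of GRCh38.p14, used here for names and order only, 265 of the 1451 protein-coding genes of chromosome 19 have a zinc finger symbol (ZNF, ZFP, ZSCAN, ZIM or ZIK with a number). Of these, 241 stand beside another such gene, and the longest unbroken row holds 27. That annotation is of another build than the files, which give positions and no names. Intervals are therefore named by hg19 position, no gene is assigned to any of them, and which of them are zinc finger genes was not checked. The level of CTDP1 itself was not analysed here.

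Each value is a TPM (transcripts relative to all transcripts of the library), a level corrected for transcript length and set relative to the library's own total, so the depth behind it is unknown. Of the 494 intervals, 156 were at 0 in all 9 libraries. A further 137 were above 0 somewhere but reached 1 TPM in too few libraries to be tested. The other 201 had at least 1 TPM in at least 3 libraries and were tested. The windows differed in this: 28 of 153 were tested at 19.8 to 24.4 Mb, but 28 of 53, 16 of 29, 49 of 86 and 80 of 173 in the windows that follow. The tested intervals were low, with a median of 5.68 TPM over all libraries, against 21.2 TPM for the 857 tested intervals in the rest of chromosome 19. Only 22 of the 494 averaged over 20 TPM. They were also longer, at a median span of 19697 bases, against 13371 bases in the rest of the chromosome. Because many are related copies, reads of near-identical members can be divided among them, and those levels are uncertain.

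The number of intervals with any signal in the windows was 275, 262 and 267 in the shCTDP1-#1 libraries and 265, 268 and 272 in the shCTDP1-#2 libraries, against 253, 248 and 237 in the shScr libraries. All 6 knockdown libraries lay above the 3 shScr libraries in this count, and the hairpins overlapped. The rest of chromosome 19 behaved alike: 1192 ± 19 intervals above 0 with shCTDP1-#1 and 1159 ± 19 with shCTDP1-#2, against 1063 ± 14 with shScr (mean ± SD, n = 3 each). 2 intervals in the windows, both at 56.6 to 59.1 Mb, were listed at 0 in all shScr libraries and above 0 in all 6 knockdown libraries. The higher of them, chr19:56888406-56889161, had 0.07, 0.17 and 1.49 TPM with shCTDP1-#1 and 0.02, 0.59 and 0.36 TPM with shCTDP1-#2, too low to test. The opposite pattern, 0 in all knockdown libraries and above 0 in all shScr libraries, was seen in 0 of the 494. In the rest of chromosome 19 these patterns were seen in 13 and 4 of 2178 intervals.

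The median level of the tested intervals rose mainly with shCTDP1-#2. It was 5.25, 4.86 and 5.45 TPM in the shCTDP1-#1 libraries and 6.73, 5.90 and 6.83 TPM in the shCTDP1-#2 libraries, against 4.78, 4.89 and 4.60 TPM in the shScr libraries. All 3 shCTDP1-#2 libraries lay well above the shScr libraries, while 1 shCTDP1-#1 library lay within their range. The summed level of the windows moved less, while single abundant intervals fell: it was 4346 ± 23 TPM with shCTDP1-#1 and 4456 ± 98 TPM with shCTDP1-#2, against 4222 ± 58 TPM with shScr. Without the most abundant interval and counting only intervals of at least 1000 bases, the sum was 3052 ± 40 TPM with shCTDP1-#1 and 3397 ± 146 TPM with shCTDP1-#2, against 2647 ± 39 TPM with shScr, 1.15 and 1.28 times the shScr mean. In the rest of chromosome 19 the same ratios were 1.07 and 0.987, its own most abundant interval likewise left out. The shCTDP1-#2 sums of the windows include 197 TPM from chr19:53418449-53426723 in replicate 1, an untested interval under 1 TPM in every other library. With every interval in, the ratios were 1.03 and 1.06 in the windows and 1.07 and 1.05 in the rest of the chromosome. The windows then held 5.25% ± 0.08 of the chromosome 19 TPM with shCTDP1-#1 and 5.46% ± 0.09 with shCTDP1-#2, against 5.46% ± 0.11 with shScr. These sums are descriptions and were not tested. The libraries are bulk RNA, so a change in the share of cells that express an interval and a change in its RNA per cell cannot be told apart.

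**Figure D1:**
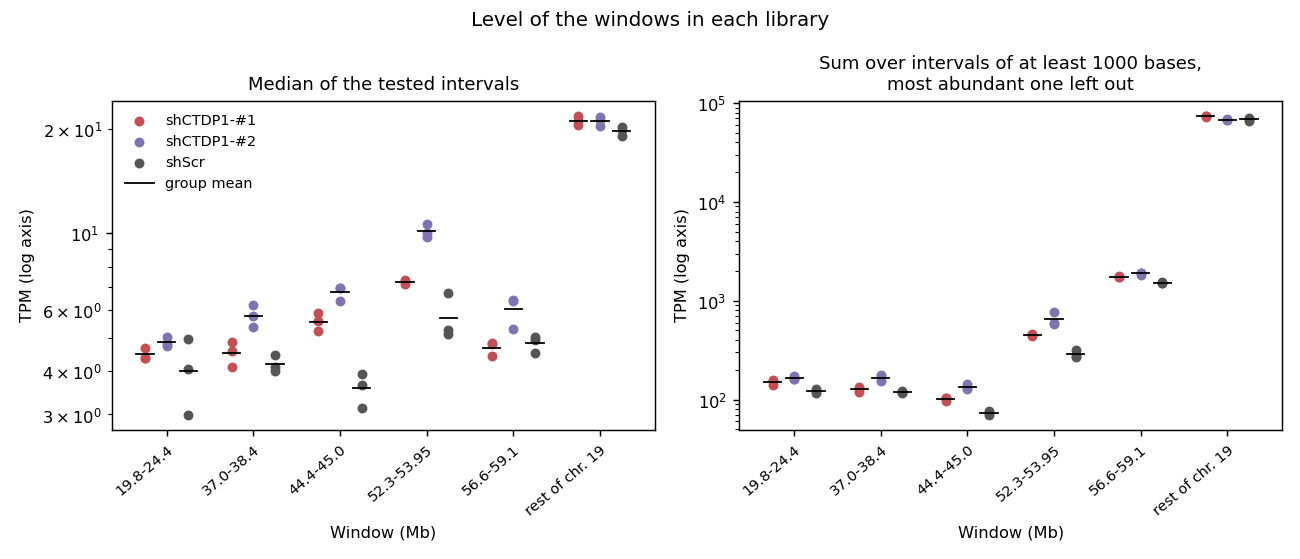
Level of each window in every library, on log axes in TPM: left, the median of the tested intervals; right, the sum over intervals of at least 1000 bases without the most abundant one. Points are libraries and bars are group means, with the rest of chromosome 19 at the far right. The shCTDP1-#2 libraries are highest at 52.3 to 53.95 Mb, with medians of 9.72 to 10.6 TPM against 5.13 to 6.73 TPM with shScr. On the right, the sum of 773 TPM there in shCTDP1-#2 replicate 1 includes 197 TPM from chr19:53418449-53426723 alone.

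With shCTDP1-#1, more intervals of the windows rose than fell: 80 of 201 (39.8%) rose and 19 (9.45%) fell at a limma adjusted p under 0.05. Over all 15011 intervals tested in the series, 63.1% were called in that comparison, with 35.4% higher and 27.7% lower. The share that rose was thus near the background, and the share that fell was below it. The median log2 change of the tested intervals was 0.24, against 0.07 over all intervals tested. A rise of 1 or more in log2 was called in 16 (7.96%) and a fall of that size in 2 (0.995%), beside backgrounds of 7.22% and 4.2%.

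With shCTDP1-#2, 116 of 201 (57.7%) rose and 14 (6.97%) fell. Of all intervals tested, 64% were called, with 39.5% higher and 24.6% lower. The median log2 change was 0.49, against 0.13 over all intervals tested. Rises of 1 or more in log2 numbered 39, or 19.4%, beside a background of 8.44%, and no fall reached that size (0 of 201, background 2.31%). Both comparisons share the 3 shScr libraries. Taking the mean of both hairpins against shScr in the same fit, 113 rose and 18 fell (56.2% and 8.96%). Over all intervals tested, 66% were called in it, with 39.1% higher and 26.9% lower. In 74 tested intervals of the windows (36.8%) all 6 knockdown libraries lay above all shScr libraries, and in 9 (4.48%) all lay below, beside 27.9% and 18.2% of all intervals tested.

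The filter can let in an interval only because it is high in the knockdown libraries, which favours rises among such intervals. Of the 201, 165 had at least 1 TPM in all shScr libraries and so passed without the knockdown libraries, and 12 had no shScr library at that level. Those 12 were 0, 1, 1, 4 and 6 in the 5 windows in order. The counts by window below keep them. Among the 165, 67 rose and 19 fell with shCTDP1-#1, and 97 rose and 14 fell with shCTDP1-#2. Among all 12988 intervals of the series that meet the same condition, 4393 rose and 4143 fell with shCTDP1-#1, and 4941 rose and 3676 fell with shCTDP1-#2. The kit does not mark strand, so reads of overlapping intervals cannot be told apart. Of the tested intervals, 115 overlapped no other interval of chromosome 19 with a mean of at least 1 TPM. Among these 115, 47 (40.9%) rose and 14 (12.2%) fell with shCTDP1-#1, and 65 (56.5%) rose and 8 (6.96%) fell with shCTDP1-#2. Over all intervals tested, whether overlapping or not, 35.4% rose and 27.7% fell with shCTDP1-#1, and 39.5% and 24.6% with shCTDP1-#2. The shares among intervals without such an overlap outside the windows were not computed. The intervals named below for a change with both hairpins did overlap one, except chr19:23487793-23578362, chr19:23945807-24010937, chr19:37128094-37157755, chr19:52839498-52871031 and chr19:57978031-57988938.

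Because the windows are low in level, they were set beside the rest of chromosome 19 at matched level, weighting the other intervals to the same spread over 7 level bins. At matched level, 36.0% of the other intervals rose and 19.5% fell with shCTDP1-#1, against which the 39.8% and 9.45% in the windows differ mainly in the falls. With shCTDP1-#2 the matched shares were 37.3% and 18.5%, beside 57.7% and 6.97% in the windows. These shares are a description, since no test of the whole set was made. Among the 180 tested intervals within 1000 kb of a window, 73 (40.6%) rose and 46 (25.6%) fell with shCTDP1-#1, so the share that rose was about that in the windows. With shCTDP1-#2, 63 (35.0%) rose and 48 (26.7%) fell there, at a median log2 change of 0.15.

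**Figure D2:**
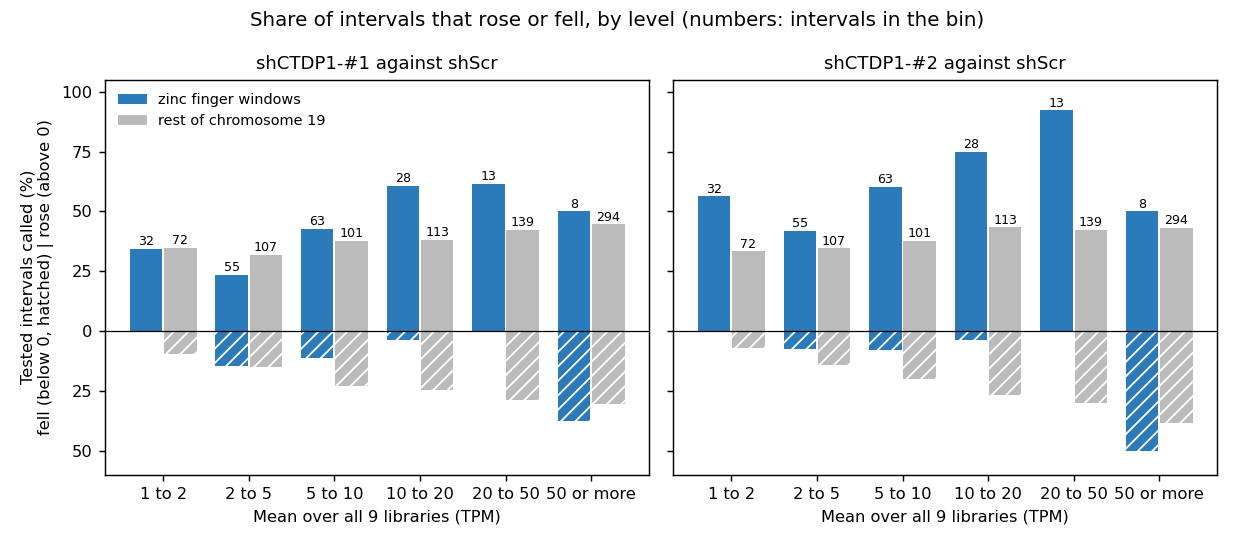
Share of tested intervals that rose (above 0) or fell (hatched, below 0) at an adjusted p under 0.05, in percent, by mean level over all 9 libraries in TPM, for the zinc finger windows (blue) and the rest of chromosome 19 (grey). Left, shCTDP1-#1 against shScr; right, shCTDP1-#2 against shScr; numbers give the intervals in each bin, and the bin under 1 TPM, with 2 intervals of the windows, is not drawn. With shCTDP1-#2, 12 of 13 intervals at 20 to 50 TPM rose in the windows, against 59 of 139 in the rest of the chromosome.

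The distance from the rest of the chromosome was widest at middle levels. At 10 to 20 TPM, 21 of 28 intervals of the windows rose and 1 fell with shCTDP1-#2, against 49 and 30 of 113 elsewhere on chromosome 19. At the same level 17 rose and 1 fell with shCTDP1-#1, against 43 and 28 of 113. At 20 to 50 TPM none of the 13 fell with either hairpin, 12 rose with shCTDP1-#2 and 8 with shCTDP1-#1. Elsewhere at that level 59 of 139 rose with each hairpin, while 42 fell with shCTDP1-#2 and 40 with shCTDP1-#1. At 50 TPM or more, 4 of 8 in the windows rose and 4 fell with shCTDP1-#2. That was near the rest of the chromosome, where 127 of 294 (43.2%) rose and 113 (38.4%) fell. Those most abundant intervals include several of the falls given below. At 1 to 2 TPM, 11 of 32 rose with shCTDP1-#1, a share of 34.4%, beside 34.7% elsewhere on the chromosome, and 18 of 32 rose with shCTDP1-#2, 56.3%, beside 33.3%.

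The first window, next to the centromere on the short arm, was the most silent, with 85 of 153 intervals at 0 in every library. Of its 28 tested intervals, 10 (35.7%) rose and 3 fell with shCTDP1-#1, and 13 (46.4%) rose and 2 fell with shCTDP1-#2. Matched intervals elsewhere on chromosome 19 rose in 35.5% and 36.5% and fell in 18.3% and 16.8%, so the share that rose with shCTDP1-#1 was that of the matched intervals. The interval chr19:19976695-20005483 had 7.96, 7.47 and 6.75 TPM with shCTDP1-#1 and 9.16, 5.91 and 8.85 TPM with shCTDP1-#2, against 2.69, 2.17 and 4.09 TPM with shScr. All 6 knockdown libraries were above all shScr libraries, and the log2 change was 1.10 with shCTDP1-#1 (limma adjusted p = 0.00054) and 1.18 with shCTDP1-#2 (adjusted p = 0.00034), at SE 0.19. The interval chr19:23487793-23578362 had 8.87, 8.09 and 13.1 TPM with shCTDP1-#1 and 11.5, 10.5 and 11.01 TPM with shCTDP1-#2, against 5.68, 5.20 and 4.3 TPM with shScr, and rose by 0.84 and 0.99 in log2 (SE 0.16 each).

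The most abundant interval of that window went the other way. The interval chr19:23945807-24010937, which spans 65131 bases, had 243, 249 and 238 TPM with shCTDP1-#1 and 163, 187 and 193 TPM with shCTDP1-#2, against 289, 307 and 305 TPM with shScr. The 3 groups did not overlap. The log2 change was -0.30 with shCTDP1-#1 (limma adjusted p = 0.001) and -0.73 with shCTDP1-#2 (adjusted p = 1.8e-06), at SE 0.06, and it is the only interval of the window that met the naming rule for a fall with both hairpins. Tested against a fold change of 1.5 it was not called with either hairpin. It carried most of the signal there: the summed level of the window was 0.933 and 0.821 times the shScr mean with shCTDP1-#1 and shCTDP1-#2, but 1.23 and 1.35 times without this interval. From 19821280 to 20991922, the first 10 tested intervals of the window all had log2 changes of 0 or above with both hairpins, and 4 and 7 of them passed the test for a rise.

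At 37 to 38.4 Mb, 7 of 28 (25%) rose and 3 fell with shCTDP1-#1, and 15 (53.6%) rose and 1 fell with shCTDP1-#2. Of the matched intervals elsewhere on chromosome 19, 35.4% rose with shCTDP1-#1, more than in the window, and 36.3% with shCTDP1-#2, while 18.2% and 16.3% fell. The median log2 change was 0.06 with shCTDP1-#1, near the 0.07 of all intervals tested, and 0.43 with shCTDP1-#2. Leaving out either shScr replicate 3 or shCTDP1-#1 replicate 3 lowered the 7 rises to 4. The interval chr19:37063972-37085610 had 9.59, 6.27 and 10.5 TPM with shCTDP1-#1 and 8.98, 8.92 and 10.2 TPM with shCTDP1-#2, against 3.70, 3.95 and 3.31 TPM with shScr. Every knockdown library stood clear of the shScr libraries, and the log2 changes were 1.05 and 1.15 (SE 0.16 each, limma adjusted p = 0.00019 and 9.8e-05). A second named interval, chr19:37128094-37157755, rose by 0.75 (adjusted p = 0.0058) and 0.86 (adjusted p = 0.0026). The most abundant interval, chr19:37803739-37860267, averaged 19.4 ± 1.1 TPM with shCTDP1-#1 and 25.2 ± 1.6 TPM with shCTDP1-#2, against 18.5 ± 1.4 TPM with shScr, and was called with shCTDP1-#2 only (log2 change 0.43, adjusted p = 0.00064). With shCTDP1-#1 its log2 change was 0.06 (adjusted p = 0.48), and median-of-ratios scaling turned that sign.

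At 44.4 to 45 Mb, the smallest window, no fall was called. Of 16 tested, 7 rose with shCTDP1-#1 and 12 with shCTDP1-#2, and 0 fell with either by limma, also at an unadjusted p under 0.05; leaving out shCTDP1-#1 replicate 3, or shCTDP1-#2 replicate 1, gave 1 fall with shCTDP1-#1. The other chromosome 19 intervals at the matched level rose in 35.3% and 37.4% and fell in 18.3% and 17.6% in these comparisons. All 16 had log2 changes above 0 with shCTDP1-#2, with a median of 0.71 and a range of 0.20 to 1.48. The top of that range is chr19:44501048-44506988, at 0.22, 0.15 and 0.14 TPM with shScr. It passed the filter only through the knockdown libraries, so its change is a description, though it is counted among the 7 and the 12. With shCTDP1-#1 the 16 intervals ran from -0.33 to 1.37.

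Among them, chr19:44609616-44617298 had 6.97, 6.29 and 6.33 TPM with shCTDP1-#1 and 6.38, 5.78 and 7.11 TPM with shCTDP1-#2, against 1.94, 1.08 and 3.02 TPM with shScr. Both hairpins gave nearly the same level, at log2 changes of 1.37 and 1.35 (SE 0.20 each, limma adjusted p = 0.00016 and 0.00019). The interval chr19:44472014-44502477 reached 12.9 ± 1.5 TPM with shCTDP1-#1 and 15.8 ± 1.2 TPM with shCTDP1-#2, against 6.24 ± 0.67 TPM with shScr. The most abundant of the window, chr19:44669226-44682534, separated the hairpins: 14.3, 21.6 and 20.8 TPM with shCTDP1-#1 and 33.8, 35.3 and 34.6 TPM with shCTDP1-#2, against 13.8, 12.6 and 18.2 TPM with shScr. The shCTDP1-#1 and shScr libraries overlapped and the log2 change of 0.32 missed the test (adjusted p = 0.092), while that of shCTDP1-#2 was 1.18 (adjusted p = 7.2e-05). Without shScr replicate 3, or without shCTDP1-#1 replicate 1, the change with shCTDP1-#1 passed the test (adjusted p = 0.0211 and 0.00729).

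The window at 52.3 to 53.95 Mb had the largest median change with shCTDP1-#1 of the 5. With shCTDP1-#1, 26 of 49 (53.1%) rose and 2 (4.08%) fell, at a median log2 change of 0.47. With shCTDP1-#2, 33 (67.3%) rose and 3 (6.12%) fell, at a median of 0.71, as at 44.4 to 45 Mb. Of the 49, 39 had at least 1 TPM in all shScr libraries and 4 had no shScr library at that level. The filter favours rises among those 4, which are kept in these counts. Matched intervals elsewhere on chromosome 19 rose in 36.4% and 38.2% and fell in 21.6% and 20.7%. Within this window shScr replicate 1 stood apart, with a median of 6.73 TPM; the other shScr medians were 5.26 and 5.13 TPM. Without it 30 rose and 2 fell with shCTDP1-#1, and 34 rose and 3 fell with shCTDP1-#2.

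A largely silent interval gave the largest change with shCTDP1-#1 that the naming rule picked. The interval chr19:52839498-52871031 had 4.17, 5.03 and 2.94 TPM with shCTDP1-#1 and 3.16, 3.11 and 3.64 TPM with shCTDP1-#2, against 0.44, 0.51 and 0.35 TPM with shScr. No library of either knockdown group came near the shScr libraries. It passed the filter only through the knockdown libraries, so its difference is given as a description, with no test. Its log2 changes, 1.80 with shCTDP1-#1 and 1.59 with shCTDP1-#2, are on the log2(TPM + 1) scale and understate the change at so low a level. The interval chr19:53430388-53466164 had 14.8, 18.0 and 17.2 TPM with shCTDP1-#1 and 19.6, 18.2 and 21.2 TPM with shCTDP1-#2, against 4.91, 5.39 and 4.66 TPM with shScr. It rose by 1.56 and 1.79 on the log2 scale (SE 0.10 each, adjusted p = 2.7e-07 and 1.1e-07).

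That interval lies in the longest unbroken row of rises. From 53267448 to 53895470, which is 628 kb, all 19 tested intervals in sequence had log2 changes above 0 with shCTDP1-#2, from 0.25 to 2.53 with a median of 0.81, and 16 passed the test. With shCTDP1-#1 the same 19 ran from -0.15 to 1.56 with a median of 0.61, and 13 rose and 0 fell. Among them chr19:53365060-53366119 had 0.72, 0.85 and 0.52 TPM with shScr. It passed the filter only through the knockdown libraries, which favours a rise, and is counted among the 16 and the 13. The row was picked because it was the longest, so its length is a description. The top of its range, chr19:53700364-53714268, was uneven: 3.12, 8.95 and 3.13 TPM with shCTDP1-#1 and 13.6, 21.9 and 10.95 TPM with shCTDP1-#2, against 7.01, 0.71 and 0.52 TPM with shScr, where replicate 1 was again the high one.

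Falls in this window were few. The interval chr19:53153690-53156537 had 4.04, 3.68 and 5.27 TPM with shCTDP1-#1 and 5.25, 4.77 and 4.58 TPM with shCTDP1-#2, against 7.78, 7.70 and 6.29 TPM with shScr. The log2 change was -0.64 with shCTDP1-#1 (limma adjusted p = 0.0017) and -0.49 with shCTDP1-#2 (adjusted p = 0.0079), at SE 0.13. This interval lies wholly within chr19:53097313-53193749, which rose by 0.49 and 0.98 in log2. Without strand, reads of the shared stretch cannot be told apart. The most abundant interval, chr19:52693292-52730687, averaged 189 ± 2 TPM with shCTDP1-#1 and 148 ± 7 TPM with shCTDP1-#2, against 183 ± 2 TPM with shScr. It fell with shCTDP1-#2 alone (log2 change -0.30, adjusted p = 5.7e-05), and its change of 0.05 with shCTDP1-#1 (adjusted p = 0.30) turned sign after median-of-ratios scaling. The shortest intervals of the window were erratic: chr19:53067329-53067484, of 156 bases, was at 27.5, 0 and 0 TPM with shCTDP1-#1 and at 0, 63.8 and 0 TPM with shCTDP1-#2, against 21.3, 0 and 0 TPM with shScr.

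**Figure D3:**
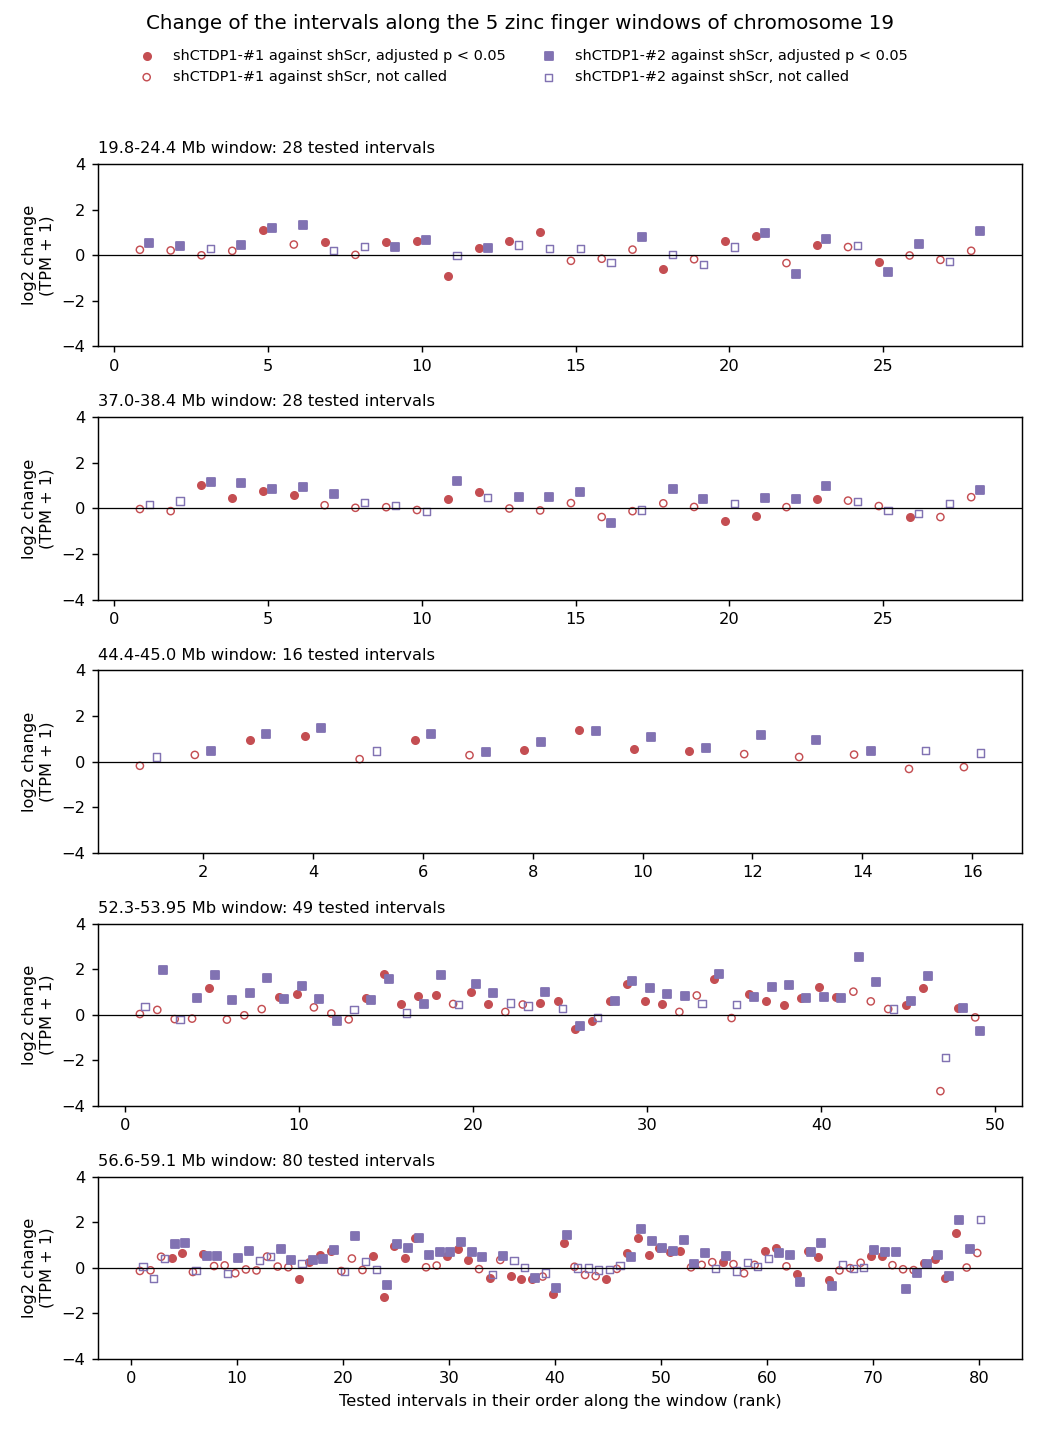
Change of every tested interval in its order along each of the 5 windows, on the log2(TPM + 1) scale; circles are shCTDP1-#1 against shScr and squares shCTDP1-#2 against shScr, filled where the adjusted p was under 0.05. At 44.4 to 45 Mb all 16 squares lie above 0. The lowest point, at 52.3 to 53.95 Mb, is an interval of 156 bases at -3.36 with shCTDP1-#1 that missed the test (adjusted p = 0.14). It is not chr19:53067329-53067484, which was at 0.12 with shCTDP1-#1 (adjusted p = 0.97).

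The last window, at the end of the long arm, was mixed. Of 80 tested intervals, 30 (37.5%) rose and 11 (13.75%) fell with shCTDP1-#1, at a median log2 change of 0.12. With shCTDP1-#2, 43 (53.75%) rose and 8 (10.0%) fell, at a median of 0.42. Without shScr replicate 1, 6 fell with shCTDP1-#1. Matched intervals elsewhere on chromosome 19 rose in 36.3% and 37.3% and fell in 19.2% and 18.6%. The share that rose with shCTDP1-#1 was thus near that of the matched intervals. The largest rise with shCTDP1-#2 among the named intervals was that of chr19:59070496-59086164, at 7.76, 6.81 and 6.03 TPM with shCTDP1-#1 and 12.6, 7.74 and 11.8 TPM with shCTDP1-#2, against 1.70, 1.91 and 1.5 TPM with shScr. All knockdown libraries exceeded the shScr libraries, and the log2 change was 1.54 with shCTDP1-#1 (limma adjusted p = 1.7e-05) and 2.09 with shCTDP1-#2 (adjusted p = 1.9e-06), at SE 0.17.

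Overlapping intervals in this window could be listed with opposite changes, though without strand the reads of their shared stretch cannot be told apart. The interval chr19:58360099-58400442 had 4.76, 4.13 and 4.44 TPM with shCTDP1-#1 and 6.68, 4.84 and 6.53 TPM with shCTDP1-#2, against 1.74, 1.47 and 1.44 TPM with shScr. The interval chr19:58331099-58370018, which overlaps it, had 3.48, 2.68 and 2.05 TPM with shCTDP1-#1 and 3.60, 3.02 and 3.67 TPM with shCTDP1-#2, against 7.95, 5.32 and 8.63 TPM with shScr. One rose by 1.09 and 1.45 on the log2 scale (SE 0.13 each), and the other changed by -1.15 and -0.89 (SE 0.19 each, limma adjusted p = 0.00032 and 0.0018), with no overlap between knockdown and shScr libraries in either. The deepest fall with shCTDP1-#1 was that of chr19:57978031-57988938, at 2.55, 2.55 and 2.09 TPM with shCTDP1-#1 and 3.55, 4.27 and 4.07 TPM with shCTDP1-#2, against 8.02, 7.18 and 6.64 TPM with shScr. The log2 change was -1.29 with shCTDP1-#1 (adjusted p = 4.7e-06) and -0.74 with shCTDP1-#2 (adjusted p = 0.00028), at SE 0.12.

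The most abundant interval of all 494 also fell. The interval chr19:58897767-58906173 had 1248, 1269 and 1233 TPM with shCTDP1-#1 and 933, 988 and 1008 TPM with shCTDP1-#2, against 1397, 1581 and 1546 TPM with shScr. The groups did not overlap, though the size was modest, at -0.27 in log2 with shCTDP1-#1 (limma adjusted p = 0.00055) and -0.63 with shCTDP1-#2 (adjusted p = 1.2e-06), at SE 0.05. At the very end of the chromosome arm, 3 abundant neighbours, chosen after their values were seen, moved in different directions. The interval chr19:59055458-59062089 had log2 changes of 0.22 and 0.18, chr19:59062933-59066491 of 0.40 and 0.58, and chr19:59067079-59070327 of -0.46 and -0.36 with shCTDP1-#1 and shCTDP1-#2, with SE 0.04 and an adjusted p of 0.003 at most.

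**Figure D4:**
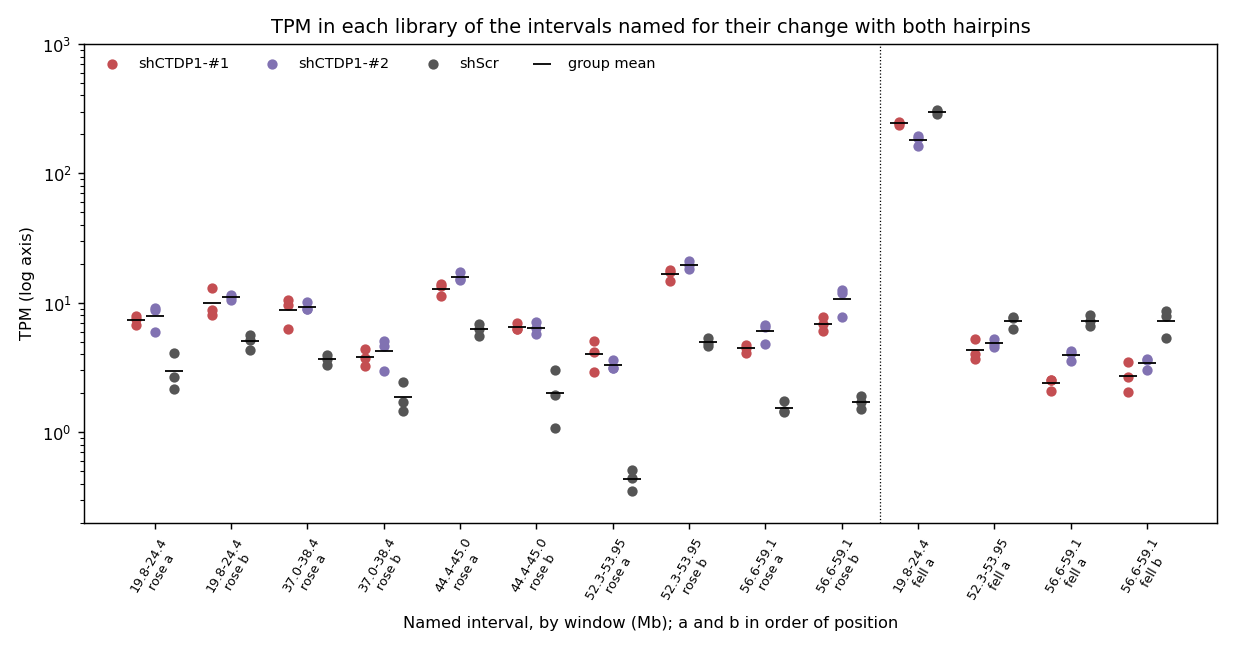
TPM on a log axis in each library of the 14 intervals named for a change with both hairpins, with the 10 that rose left of the dotted line and the 4 that fell right of it. Points are libraries, coloured by group, and black bars are group means. In every one of them the 6 knockdown libraries lie on the same side of the 3 shScr libraries, as the naming rule required.

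Tested directly against each other, the hairpins differed in 83 of the 201 intervals. In shCTDP1-#2 against shCTDP1-#1, 73 (36.3%) were higher and 10 (4.98%) lower. Of all intervals tested, 50.2% differed between the hairpins, with 30.2% higher and 20% lower. Of the other chromosome 19 intervals at matched level, 23.4% were higher and 14.7% lower. The median log2 difference was 0.26, against 0.07 over all intervals tested. Upper-quartile scaling left 55 higher and 17 lower, and over all intervals the share of higher calls changed with it to 45.3%, against 60.2% with TPM as deposited. At 19.8 to 24.4 Mb, 7 of 28 (25%) were higher and 3 (10.7%) lower, near the 22.2% and 12.7% of matched intervals elsewhere. At 37 to 38.4 Mb, 13 of 28 (46.4%) were higher and 0 lower. At 44.4 to 45 Mb, 8 of 16 (50%) were higher and 0 lower. At 52.3 to 53.95 Mb, 17 of 49 (34.7%) were higher and 4 (8.16%) lower. At 56.6 to 59.1 Mb, 28 of 80 (35%) were higher and 3 (3.75%) lower. In every window but the first, the matched shares were at most 25.1% higher and at least 12.1% lower. Some of the window counts rest on single libraries. At 19.8 to 24.4 Mb, 3 were higher without shCTDP1-#2 replicate 1, and 4 without shCTDP1-#2 replicate 3 or shCTDP1-#1 replicate 2. At 44.4 to 45 Mb, 5 were higher without shCTDP1-#2 replicate 1 or shCTDP1-#1 replicate 2. At 52.3 to 53.95 Mb, 1 was lower without shCTDP1-#1 replicate 1 and 2 without shCTDP1-#2 replicate 1 or 2.

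Among intervals averaging at least 2 TPM, the largest called difference was at chr19:52534632-52598991, with 16.6, 19.1 and 20.2 TPM with shCTDP1-#2 against 6.25, 6.66 and 7.28 TPM with shCTDP1-#1. The shScr libraries, at 6.73, 5.04 and 4.95 TPM, lay with or below shCTDP1-#1. The difference between the hairpins was 1.34 on the log2 scale (SE 0.12, limma adjusted p = 8.5e-06). A lower interval, chr19:52391278-52403716, chosen after its values were seen, was listed at 0 in all 3 shScr libraries. It had 3.53, 3.01 and 2.32 TPM with shCTDP1-#2, against 0, 0.25 and 0.23 TPM with shCTDP1-#1, a log2 difference of 1.76. It passed the filter only through the shCTDP1-#2 libraries, so this is a description, with no test. At chr19:21264965-21308073 shCTDP1-#2, with 9.88, 9.20 and 9.59 TPM, lay within the shScr range of 8.23 to 11.1 TPM, while shCTDP1-#1 was lower, at 5.21, 4.57 and 4.41 TPM. A difference in the other direction was seen at chr19:58990879-59023780, with 3.49, 3.33 and 2.01 TPM with shCTDP1-#2 against 5.82, 6.49 and 5.87 TPM with shCTDP1-#1. The interval chr19:37902057-37960177, chosen after its values were seen, passed the test in opposite directions. Its level was 5.81, 6.05 and 6.57 TPM with shCTDP1-#1 and 11.1, 11.6 and 10.7 TPM with shCTDP1-#2, against 7.24, 8.20 and 8.42 TPM with shScr, with log2 changes of -0.32 (limma adjusted p = 0.0086) and 0.44 (adjusted p = 0.0015).

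The balance of rises and falls depends on how libraries are scaled, so it is also given relative to all intervals. Median-of-ratios scaling moved the median of all intervals with shCTDP1-#2 to 0.00, from 0.13 with TPM as deposited. With that scaling, 74 of 202 intervals of the windows rose and 24 fell with shCTDP1-#1, and 101 rose and 19 fell with shCTDP1-#2. The median of the windows then lay 0.18 and 0.37 above that of all intervals with shCTDP1-#1 and shCTDP1-#2, against 0.17 and 0.35 with TPM as deposited. The mitochondrial share of TPM was 4.47% in shScr replicate 1, where the other shScr libraries had 1.12% and 1.66%. With TPM recomputed without the mitochondrial sequence, 77 rose and 19 fell with shCTDP1-#1, and 115 rose and 14 fell with shCTDP1-#2.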

How the data were processed

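The deposited files, 1 for each library, list a TPM value to 2 decimals for each of 57773 genomic intervals. The submitters' processing notes name STAR, RSEM and hg19, and no version, annotation or setting is given in the sources used here. The unit was read from the values, which sum to about 1000000 in each library. Depth is unknown, and no counting interval is given. Files were joined on coordinates; 2246 rows sharing an interval were left out (0.355% to 0.391% of the TPM), 4 of them within the windows. The members, lists and windows were chosen with earlier results of these data known. Intervals at 1 TPM or more in at least 3 libraries, 15011 in all, were fitted as log2(TPM + 1) with limma 3.58.1 (trend and robust options, statmod 1.5.0) in R 4.3.3, with all 9 libraries fitted together as 3 group means (6 degrees of freedom left). Benjamini-Hochberg adjustment ran over all of them, at 0.05. The fit was tested on simulated data. Matched shares weight the other chromosome 19 intervals to the level bins of the members (mean over all libraries; limits of 1, 2, 5, 10, 20 and 50 TPM). Named in each window are the most abundant interval, up to 2 that rose and 2 that fell with both hairpins (mean of at least 2 TPM, no overlap between knockdown and shScr libraries, in order of the smaller change), and that with the largest hairpin difference. Alternatives covered the pseudocount, filter, scaling, test, options, membership, pairing and each library left out.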

Additional observations from a re-analysis of the deposited data

Results flagged for a closer look

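The results given here drew attention because the hairpins did not act alike: each was called in the direct limma contrast of shCTDP1-#2 with shCTDP1-#1. Of the 201 tested intervals in the windows, 73 (36.3%) were higher and 10 (4.98%) lower with shCTDP1-#2. Over all intervals tested, 30.2% were higher and 20% lower. The share that differed was 41.3% in the windows, below the 50.2% of all intervals tested. By window, the largest such log2 differences among intervals averaging at least 2 TPM were 0.884 at chr19:21264965-21308073, 0.79 at chr19:37861963-37883968, 0.86 at chr19:44669226-44682534, 1.34 at chr19:52534632-52598991 and -0.861 at chr19:58990879-59023780. Groups of 3 libraries are too small to test for a library far from the others.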

How the results depend on the processing

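Over the 5 windows together, the counts of risen and fallen intervals stayed within 1.5 times their reported values under the other pseudocounts, filters, scalings, limma options, the window overlap, summed repeats and each library left out, except as follows. Against a fold change of 1.5, which asks for a larger change, shCTDP1-#1 gave 13 rises and 2 falls, shCTDP1-#2 gave 37 rises and 0 falls, the mean of both 25 and 1, and the hairpin contrast 3 and 0. Of 38 changes called in the named intervals, 20 were not called in that test, and no other alternative lost one. At matched level the windows then differed from the rest of the chromosome by 1.07 points in rises and -3.09 in falls, against 14.4 and -11.5 as reported; without a filter the rises differed by 6.01 points. After upper-quartile scaling, 17 were lower between the hairpins. Counting intervals that overlap no expressed interval, chosen after seeing the data as were the shScr filter and the mitochondrial rescaling, gives fewer by construction: 47 higher with shCTDP1-#1, 65 higher and 8 lower with shCTDP1-#2, 62 higher for the mean and 39 higher between hairpins. With single libraries left out in turn, rises ranged over 71 to 81 for shCTDP1-#1, 108 to 118 for shCTDP1-#2, 99 to 111 for the mean and 56 to 74 for the hairpin contrast. Falls ranged over 13 to 20, 13 to 15, 13 to 17 and 7 to 12 in the same order, beside matched differences of 11.7 to 14.8 and -12.8 to -9.56 points. Median-of-ratios scaling turned 2 uncalled changes with shCTDP1-#1, to -0.01 at chr19:37803739-37860267 and -0.031 at chr19:52693292-52730687; the cause was not tested. Same-numbered libraries of different groups had residual correlations of -0.007 to 0.053, beside -0.046 to 0.024 for libraries with other numbers. All were small, and the main fit did not pair libraries by number. With the replicate block 77 rose and 18 fell with shCTDP1-#1, and 118 and 14 with shCTDP1-#2. Depth is unknown in TPM, so low intervals carry an unmeasured counting error.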
